A study of Oryzias latipes with 24 samples.

Results

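Medaka, a small freshwater fish, was compared at stage 40, around hatching, with stage 36, a late embryo inside the egg envelope. The comparison used 4 of the 24 RNA-seq libraries of the series, namely the 2 libraries of stage 40 and the 2 of stage 36, all from whole embryos. Both stage 36 libraries and stage 40 replicate 1 carry the strain label Hd-rR, and stage 40 replicate 2 carries the label d-rR / Qurt, so at stage 40 the strain and the replicate number cannot be told apart. By the study's methods, synchronous embryos were gathered in numbers for every stage, so a library stands for a pool of embryos, no treatment is described for either stage, and p-values measure only the spread between such pools, which may be technical. A change was read only where both libraries of one stage lay beyond both of the other.

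Before hatching, gland cells release proteases that soften and dissolve the egg envelope from inside. Around the same time the larva prepares to feed: the exocrine pancreas stores digestive enzymes, the gut lining takes up lipids, sugars and peptides, and the retina becomes able to form images. The central nervous system meanwhile passes from dividing progenitor cells, which are kept by Sox and homeobox factors, to settled neurons and glia.

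Levels are given in TPM, the share of a transcript among all transcripts of a library, a measure that corrects for gene length and for the total of a library but keeps no read depth. Of the 26549 genes in the table, 21179 reached 1 TPM in at least 2 of the 22 stage libraries and were tested with limma on log2(TPM + 1). The fit took the spread from all 22 stage libraries of 11 stages, and a fit of the 4 libraries alone called 115 genes. Calls required a Benjamini-Hochberg adjusted p under 0.05 together with a log2 change of 1 or more in size. At stage 40, 1227 genes were called higher (5.79% of those tested) and 1033 lower (4.88%), together 10.7%, and in each of the 2260 both libraries of one stage lay beyond both of the other. The rises were larger than the falls, with 164 rises and 19 falls of at least 3 on the log2 scale and medians of 1.68 and -1.33 among the genes called. The median of all genes tested was -0.21, and it became 0.01 with median-of-ratios scaling, under which 1732 genes (8.18%) were called higher and 476 (2.25%) lower, together 10.4%. The share of calls that were higher was thus 54.3% on the deposited scale and 78.4% with that scaling. Lower calls numbered 524 without stage 40 replicate 1, 384 without stage 40 replicate 2, 426 without stage 36 replicate 1 and 393 without stage 36 replicate 2, and higher calls numbered 756 without stage 36 replicate 2. Without both libraries of the d-rR / Qurt label the counts were 973 higher and 373 lower.

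**Figure D1:**
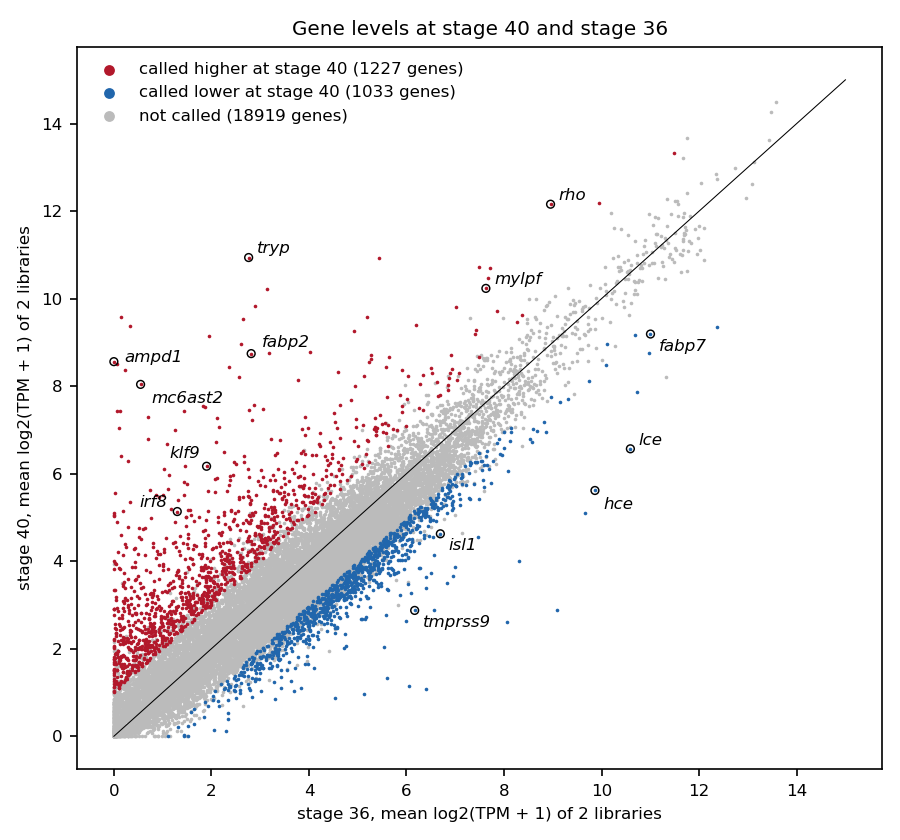
Mean log2(TPM + 1) of the 2 stage 40 libraries (vertical axis) against that of the 2 stage 36 libraries (horizontal axis), 1 point per gene tested, with calls in colour, the line of equal levels in black and some named genes circled. The 1227 higher calls reach farther from the line than the 1033 lower calls.

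Rank correlations over the genes tested were 0.927 between the 2 stage 40 libraries, 0.947 between the 2 stage 36 libraries and 0.852 to 0.889 between libraries of different stages. The libraries of stage 38, the stage between them, differed in this: replicate 2 was nearer to stage 40 replicate 2 (0.941) than to stage 36 replicate 2 (0.871), and replicate 1 was farther from stage 40 replicate 1 (0.944) than from stage 36 replicate 1 (0.962). Markers of retina, lens, muscle, neurons and heart were present at both stages. The rod opsin rho, the lens crystallins crybb1 and cryba2, the muscle actin acta1 and the neuronal snap25 were all above 80 TPM in each of the 4 libraries, and myl7 of the heart was above 40 TPM. Not every tissue was marked so at both stages: cpb1 of the exocrine pancreas and fabp2 of the intestine were below 10 TPM in both stage 36 libraries, as given below. The oocyte genes bmp15 and figla, which an embryo at these stages should lack, were under 0.2 TPM in each of them.

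The steepest falls among genes with a symbol were those of both hatching enzymes. The gene hce encodes the high choriolytic enzyme, an astacin metalloprotease that swells the inner layer of the egg envelope (chromosome 3, 32709884 to 32710789, in the study's gene models). It stood at 101 and 22.7 TPM at stage 40, against 722 and 1199.8 TPM at stage 36 (log2 change -4.25, SE 0.55, adjusted p = 8.3e-05). Its partner lce, the low choriolytic enzyme that dissolves the swollen envelope (chromosome 24, 9947245 to 9950219), stood at 225 and 38.9 TPM at stage 40, against 1693 and 1403 TPM at stage 36 (log2 change -4.02, SE 0.56, adjusted p = 0.00015). For both enzymes every stage 36 library was above every stage 40 library, and the lower of the stage 40 libraries was replicate 2. At stage 38 hce was at 432 and 182 TPM and lce at 884 and 307 TPM. At stage 41 both were under 0.1 TPM in each library. Medaka is known to carry several near-identical copies of hce, so reads of the copies may be shared among them.

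The gland list did not move as a whole. Of its 5 members tested, hce and lce fell, agr2 rose, and xbp1 and cd63 did not pass the test. The disulfide isomerase relative agr2, which secretory cells use to fold mucins, was at 80.8 and 38.8 TPM at stage 40, against 10.7 and 4.19 TPM at stage 36 (log2 change 2.87, SE 0.38, adjusted p = 0.0001). The secretory cell factor xbp1 stood at 159 and 160.4 TPM at stage 40, against 213 and 195 TPM at stage 36. The summed level of the 5 genes was 619 and 332 TPM at stage 40, against 2693 and 2864 TPM at stage 36. As each library is a whole embryo pool, fewer cells of a type and less RNA per cell cannot be told apart here or in any list below.

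Another protease fell beside them. The gene tmprss9, a serine protease of the transmembrane family (chromosome 4, 8258709 to 8272216), stood at 8.05 and 4.95 TPM at stage 40, against 52.9 and 94.8 TPM at stage 36 (log2 change -3.29, SE 0.60, adjusted p = 0.0017), and its libraries did not overlap between the stages. It was at 31.9 and 50.6 TPM at stage 38 and at 0.0908 and 0.101 TPM at stage 41.

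**Figure D2:**
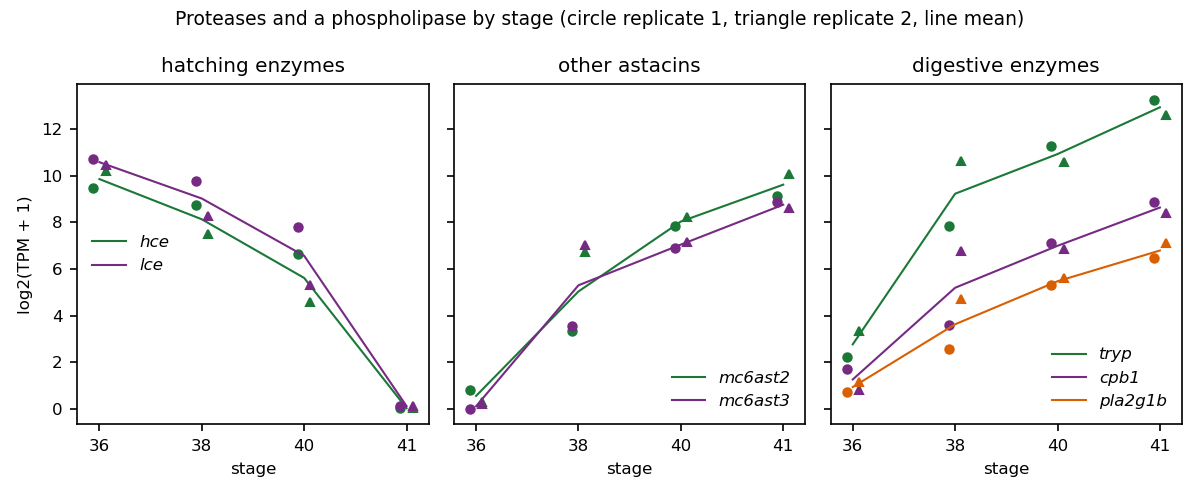
Levels on a log2(TPM + 1) scale at stages 36, 38, 40 and 41 for the hatching enzymes, for 2 other astacins and for 3 digestive enzymes, with circles for replicate 1, triangles for replicate 2 and lines through the means. The hatching enzymes end near 0 at stage 41, while in the other panels every stage 40 library lies above both stage 36 libraries.

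Digestive enzymes of the pancreas showed the opposite course. Trypsin, encoded by tryp, is made by the exocrine pancreas as an inactive precursor and cleaves dietary proteins (chromosome 16, 21788040 to 21789440). It was at 2494 and 1544 TPM at stage 40, against 3.62 and 8.97 TPM at stage 36 (log2 change 8.18, SE 0.61, adjusted p = 2e-07). Carboxypeptidase B, cpb1, which trims basic residues from the resulting peptides, was at 138 and 117 TPM at stage 40, against 2.28 and 0.736 TPM at stage 36 (log2 change 5.74, SE 0.61, adjusted p = 1.1e-05). The pancreatic phospholipase pla2g1b, which cleaves dietary phospholipids, was at 38.99 and 48.4 TPM at stage 40, against 0.643 and 1.205 TPM at stage 36 (log2 change 4.55, SE 0.45, adjusted p = 5.7e-06). All 3 were under 10 TPM in both stage 36 libraries and did not overlap between the stages. At stage 38 the replicates stood far apart, with tryp at 227 and 1590.5 TPM and cpb1 at 11.2 and 109 TPM, and at stage 41 tryp reached 9846 and 6348 TPM.

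The list of exocrine pancreas genes had 4 members tested, of which cpb1 and pla2g1b rose. The transcription factors of acinar cells in it did not pass the test: ptf1a stood at 2.13 and 3.49 TPM at stage 40, against 3.01 and 5.199 TPM at stage 36, and rbpjl at 4.895 and 4.26 TPM at stage 40, against 2.67 and 1.93 TPM at stage 36 (adjusted p = 0.051). The trypsin gene was not an entry of that list and is named for the size of its change. The median change of the 4 genes was 2.66, against -0.21 over all genes tested.

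In the same protease family, a pair of astacins named for their 6 cysteines rose while the hatching enzymes fell. The gene mc6ast2 (chromosome 3, 4570941 to 4579231) was at 231 and 297 TPM at stage 40, against 0.767 and 0.209 TPM at stage 36 (log2 change 7.49, SE 0.66, adjusted p = 1.5e-06). Similarly, mc6ast3 (chromosome 6, 3463290 to 3470540) was at 120.2 and 144 TPM at stage 40, against 0 and 0.153 TPM at stage 36 (log2 change 6.95, SE 0.64, adjusted p = 2.3e-06). Both were below 1 TPM in each stage 36 library and above 120 TPM in each stage 40 library.

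Genes of the intestinal lining rose as a group: 9 of the 13 members tested were called higher (69.2%, against 5.79% of all genes) and the other 4 did not pass the test, with a list median of 1.77. The count was 6 without stage 40 replicate 2, 7 without either stage 36 library and 8 without stage 40 replicate 1. Of the 9, 6 were called with all libraries and without each of them. The summed level of the 13 genes was 471 and 1308 TPM at stage 40, against 112 and 103 TPM at stage 36.

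The largest change of the list was that of fabp2, the intestinal fatty acid-binding protein that carries lipids inside enterocytes (chromosome 1, 16697170 to 16698466). It was at 193 and 947 TPM at stage 40, against 3.68 and 9.59 TPM at stage 36 (log2 change 5.93, SE 0.97, adjusted p = 0.00067), and the stage 40 library of the other strain label was the higher of the 2. The sucrase-isomaltase gene si, a brush border enzyme that splits disaccharides, was at 44.5 and 77.4 TPM at stage 40, against 4.35 and 2.53 TPM at stage 36 (log2 change 3.78, SE 0.57, adjusted p = 0.00032). Both genes were below 10 TPM in each stage 36 library, and their libraries did not overlap.

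Uptake and brush border genes moved likewise. The microvillar protocadherin cdhr2 was at 16.4 and 25.2 TPM at stage 40, against 1.43 and 1.18 TPM at stage 36 (log2 change 3.21, SE 0.49, adjusted p = 0.00036). The sterol uptake protein npc1l1 was at 13.4 and 22.9 TPM at stage 40, against 1.84 and 0.482 TPM at stage 36 (log2 change 3.18, SE 0.40, adjusted p = 6.1e-05). The chloride and bicarbonate exchanger slc26a3 was at 12.2 and 15.4 TPM at stage 40, against 0.753 and 1.29 TPM at stage 36 (log2 change 2.88, SE 0.46, adjusted p = 0.00052). In these 3 genes every stage 40 library was above 12 TPM and every stage 36 library below 2 TPM. The peptidase enpep, which removes acidic residues from the ends of peptides, was at 14.7 and 24.8 TPM at stage 40, against 3.41 and 3.105 TPM at stage 36 (log2 change 2.24, SE 0.40, adjusted p = 0.0014).

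The other 3 calls of the list, cdh17, mep1b and tm4sf4, were lost when single libraries were left out. The gut cadherin cdh17 was at 78.7 and 83.02 TPM at stage 40, against 24.4 and 25.6 TPM at stage 36 (log2 change 1.65, SE 0.39, adjusted p = 0.01), and its adjusted p was 0.062 without stage 40 replicate 2, 0.06 without stage 36 replicate 1 and 0.056 without stage 36 replicate 2. The brush border protease mep1b was at 9.02 and 15.1 TPM at stage 40, against 2.201 and 3.32 TPM at stage 36 (log2 change 1.77, SE 0.36, adjusted p = 0.0043), with an adjusted p of 0.057 without stage 40 replicate 2. For tm4sf4, a membrane protein of gut and liver, the adjusted p lay between 0.083 and 0.17 with any of the 4 left out. The endocytic adaptor dab2, used for protein uptake in the larval gut of fish, stood at 50.4 and 38.8 TPM at stage 40, against 54.5 and 38.3 TPM at stage 36 and did not differ beyond the spread. Outside the list, aoc1, the diamine oxidase that breaks down histamine in gut and kidney, was at 18.9 and 34.99 TPM at stage 40, against 0.441 and 0.568 TPM at stage 36 (log2 change 4.15, SE 0.38, adjusted p = 2.1e-06).

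The retina list also rose as a group. Of its 20 members tested, 12 were called higher (60%, against 5.79% of all genes) and 8 did not pass the test, with a list median of 1.67. The count was 11 without stage 40 replicate 2 and 12 without each of the others, and it was 12 with median-of-ratios scaling. The summed level was 6445 and 4375 TPM at stage 40, against 1058 and 783 TPM at stage 36, and most of it was rho.

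Rhodopsin, rho, is the light receptor of rods (chromosome 7, 16841259 to 16842858). It was at 5663 and 3684 TPM at stage 40, against 600.2 and 408 TPM at stage 36 (log2 change 3.20, SE 0.39, adjusted p = 4.6e-05). Both stage 40 libraries were above both stage 36 libraries, and the lower stage 40 value was that of replicate 2. The values at stage 38 were already 4377 and 3216 TPM, and those at stage 41 were 1580.3 and 1132 TPM, below both stage 40 libraries.

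The enzymes that pass on the light signal rose with it. The cone phosphodiesterase subunit pde6c, which breaks down cyclic GMP in the light, was at 49.7 and 23.5 TPM at stage 40, against 2.33 and 3.41 TPM at stage 36 (log2 change 3.20, SE 0.37, adjusted p = 2.5e-05). The cone channel subunit cnga3, which closes when cyclic GMP falls, was at 4.58 and 8.41 TPM at stage 40, against 1.86 and 0.888 TPM at stage 36 (log2 change 1.64, SE 0.32, adjusted p = 0.0026). Both genes were low at stage 36 and their libraries did not overlap.

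Genes that end the light response and restore the dark state were called as well. The guanylate cyclase activator guca1a was at 8.505 and 15.8 TPM at stage 40, against 0.1505 and 0.706 TPM at stage 36 (log2 change 3.17, SE 0.40, adjusted p = 6.1e-05). Its relative guca1b was at 22.1 and 66.4 TPM at stage 40, against 5.41 and 6.496 TPM at stage 36 (log2 change 2.51, SE 0.49, adjusted p = 0.0031), with an adjusted p of 0.059 without stage 40 replicate 2. The opsin kinases grk1 and grk7, which switch off activated opsins in rods and cones, had log2 changes of 1.69 and 2.16. Phosducin, pdc, which binds transducin subunits, was at 37.2 and 30.9 TPM at stage 40, against 3.004 and 4.76 TPM at stage 36 (log2 change 2.86, SE 0.37, adjusted p = 8.3e-05).

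Structural and matrix genes of the outer retina were also higher. The disc rim protein prph2 was at 15.5 and 25.4 TPM at stage 40, against 1.68 and 1.996 TPM at stage 36 (log2 change 2.88, SE 0.33, adjusted p = 2.1e-05). The retinoid carrier rbp3 of the space between photoreceptors and pigment epithelium was at 137 and 125 TPM at stage 40, against 44.5 and 11.6 TPM at stage 36 (log2 change 2.46, SE 0.43, adjusted p = 0.0013). The cone survival factor nxnl1 had a log2 change of 1.33. In contrast, the cone arrestin arr3 stood at 272 and 93.2 TPM at stage 40, against 189 and 96.1 TPM at stage 36, and rpe65, the isomerase of the pigment epithelium, at 81.5 and 109 TPM at stage 40, against 67.3 and 65.2 TPM at stage 36. Neither of these 2 passed the test (adjusted p = 0.82 and 0.48), although arr3 was abundant at both stages. The clock-driven enzyme aanat1b, of the melatonin pathway in the eye, was the only riser among 14 circadian genes (7.14%, against 5.79% of all genes). Of these genes rorb alone fell (7.14%, against 4.88%). Its call was lost without stage 36 replicate 2, where its log2 change was -1.53. The level of aanat1b was 5.16 and 4.93 TPM at stage 40, against 0.707 and 1.28 TPM at stage 36 (log2 change 1.62, SE 0.28, adjusted p = 0.0013). Lens genes did not follow: no member of the list of 8 was called by limma or passed an unadjusted p of 0.05, and crybb1 stood at 1519 and 1793 TPM at stage 40, against 1816 and 1839.9 TPM at stage 36.

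**Figure D3:**
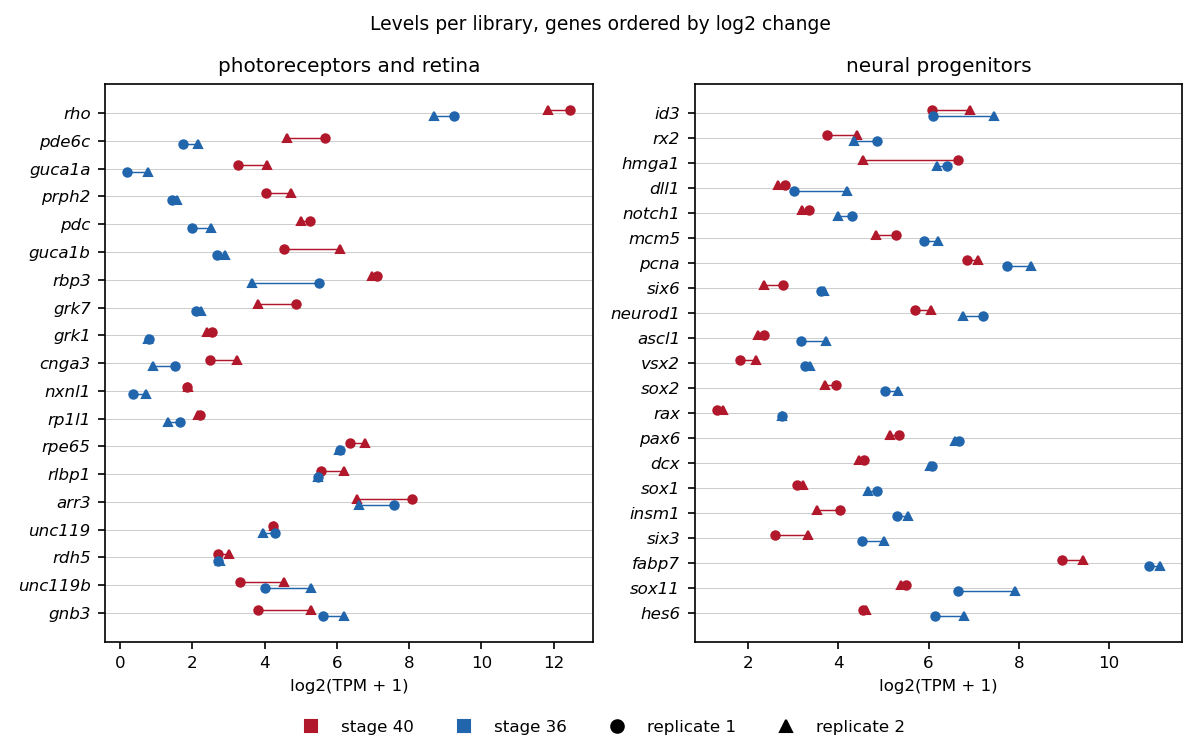
Levels on a log2(TPM + 1) scale of the retina genes shown and of the 21 neural progenitor genes in each of the 4 libraries, with stage 40 in red and stage 36 in blue, circles for replicate 1 and triangles for replicate 2, and genes ordered by their log2 change. From rho down to nxnl1 the stage 40 points lie to the right of the stage 36 points, and from six6 down to hes6 they lie to the left.

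Liver genes rose in a smaller way. Of the 21 members tested, 8 were called higher (38.1%, against 5.79% of all genes) and 13 did not pass the test, with a list median of 0.80. The count was 1 without stage 40 replicate 1, 4 without stage 40 replicate 2, 1 without stage 36 replicate 1 and 3 without stage 36 replicate 2. Called in each case was tat, the tyrosine aminotransferase that starts tyrosine breakdown and is known as a glucocorticoid target in mammals. It was at 56.7 and 21.6 TPM at stage 40, against 0.879 and 3.38 TPM at stage 36 (log2 change 3.65, SE 0.71, adjusted p = 0.0028).

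Among the other plasma proteins, the 3 fibrinogen chains fga, fgb and fgg had log2 changes of 1.24, 1.06 and 1.08. With any of the 4 libraries left out, the calls on fga and fgb were lost, at adjusted p between 0.053 and 0.25, and that on fgg was kept only without stage 40 replicate 2. Hemopexin, hpx, which binds free heme, was at 29.7 and 13.7 TPM at stage 40, against 0.416 and 1.17 TPM at stage 36 (log2 change 3.60, SE 0.80, adjusted p = 0.0076), with an adjusted p of 0.064 without stage 40 replicate 1 and 0.062 without stage 36 replicate 1. Selenoprotein P, selenop, a selenium carrier, did not differ beyond the spread, at 649.9 and 641 TPM at stage 40, against 554 and 609 TPM at stage 36.

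Sugar handling held some of the larger changes. Of 18 hypoxia and glycolysis genes, g6pc, pfkp and slc2a2 rose (16.7%, against 5.79% of all genes) and gpi and pfkl fell (11.1%, against 4.88%). Neither fall held without each single library. The catalytic subunit of glucose 6-phosphatase, g6pc, which releases glucose into the blood, was at 199.9 and 55.2 TPM at stage 40, against 2.66 and 3.98 TPM at stage 36 (log2 change 4.64, SE 0.63, adjusted p = 0.00011). Both stage 40 libraries exceeded both stage 36 libraries, with replicate 1 the higher. Phosphofructokinases moved in opposite directions: pfkp, the platelet form, was at 79.5 and 73.2 TPM at stage 40, against 14.2 and 10.8 TPM at stage 36 (log2 change 2.53, SE 0.31, adjusted p = 4e-05), and pfkl, the liver form, was at 36.4 and 51.4 TPM at stage 40, against 96.4 and 130.4 TPM at stage 36 (log2 change -1.35, SE 0.32, adjusted p = 0.012). The call on pfkl was lost without stage 40 replicate 1 (adjusted p = 0.095) and without stage 36 replicate 2 (adjusted p = 0.11). The housekeeping enzyme gapdh stood at 4634 and 3425 TPM at stage 40, against 3047 and 3569 TPM at stage 36 and did not pass the test.

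Kidney genes split by kind. Of the 15 tested, 5 rose (33.3%, against 5.79% of all genes) and 2 fell (13.3%, against 4.88%). The risers were transporters, a scaffold and a tight junction protein, while the fallers pax2 and pax8 are transcription factors of the forming kidney and other organs. The salt transporter slc12a1 of the distal tubule was at 22.1 and 46.3 TPM at stage 40, against 3.55 and 4.09 TPM at stage 36 (log2 change 2.78, SE 0.47, adjusted p = 0.00084). The scaffold pdzk1, which anchors transporters in the brush border of kidney and gut, was at 54.1 and 65.03 TPM at stage 40, against 7.68 and 7.06 TPM at stage 36 (log2 change 2.85, SE 0.62, adjusted p = 0.0061). The glucose transporter slc5a2 was at 3.67 and 6.101 TPM at stage 40, against 0.798 and 0.571 TPM at stage 36 (log2 change 1.78, SE 0.30, adjusted p = 0.00099). These 3 held without each single library, but the list's rises numbered 3 without stage 36 replicate 1. Falls numbered 0 without stage 40 replicate 2, 0 without stage 36 replicate 1 and 1 without stage 36 replicate 2. The brush border dipeptidase dpep1, no entry of the list, was at 40.1 and 16.9 TPM at stage 40, against 0.691 and 0.204 TPM at stage 36 (log2 change 4.25, SE 0.35, adjusted p = 5.8e-07).

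Some ammonia transporters of the Rhesus family were higher at stage 40, and fish are known to excrete nitrogen mainly as ammonia through skin and gills. The gene rhcg was at 28.9 and 12.00 TPM at stage 40, against 0.143 and 0.597 TPM at stage 36 (log2 change 3.87, SE 0.72, adjusted p = 0.002), and rh50 at 41.1 and 13.1 TPM at stage 40, against 0.163 and 0.0498 TPM at stage 36 (log2 change 4.46, SE 0.65, adjusted p = 0.00024). In both genes each stage 36 library was below 1 TPM, and stage 40 replicate 1 was the higher of its pair. Another member, rhbg, was at 169 and 182 TPM at stage 40, against 80.2 and 80.1 TPM at stage 36 (log2 change 1.12, adjusted p = 0.027), and its adjusted p lay between 0.08 and 0.13 with any of the 4 libraries left out. The red cell member rhag stood at 139 and 130.03 TPM at stage 40, against 129 and 125 TPM at stage 36 and did not pass the test (log2 change 0.08, adjusted p = 0.9). Of the 9 ion transport genes tested, 3 rose (33.3%, against 5.79% of all genes). The count was 2 without each stage 40 library and without stage 36 replicate 2, and 1 without stage 36 replicate 1. The proton pump subunit atp6v1a stood at 115 and 125 TPM at stage 40, against 87.9 and 88.2 TPM at stage 36 and did not pass the test.

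In skeletal muscle a few genes of energy use and contraction rose, while the most abundant structural gene, the actin acta1, did not pass the test. Of the 21 members tested, 4 rose (19%, against 5.79% of all genes) and 2 fell (9.52%, against 4.88%), with a list median of 0.69. The largest change was that of ampd1, the AMP deaminase of muscle (chromosome 7, 1544677 to 1557778), which stood at 501 and 283 TPM at stage 40 and was listed at 0 in both stage 36 libraries (adjusted p = 3.2e-05). No fold is given because of those zeros. At stage 38 it was at 3.58 and 228 TPM, so that only replicate 2 had a high level there. The fast light chain mylpf, a regulatory subunit of myosin, was at 1097 and 1320.2 TPM at stage 40, against 198 and 195 TPM at stage 36 (log2 change 2.61, SE 0.55, adjusted p = 0.0056). The calls on these 2 genes and on mybpc1 held without each single library.

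The slow myosin-binding protein mybpc1 was at 47.1 and 34.5 TPM at stage 40, against 16.6 and 15.5 TPM at stage 36 (log2 change 1.27, SE 0.26, adjusted p = 0.0036). The calcium pump atp2a1 of the sarcoplasmic reticulum was at 357 and 208 TPM at stage 40, against 113 and 84.8 TPM at stage 36 (log2 change 1.47, SE 0.35, adjusted p = 0.012), with adjusted p = 0.12 without stage 40 replicate 1 and 0.1 without stage 36 replicate 2. Muscle actin, acta1, stood at 29633 and 17854 TPM at stage 40, against 17825 and 8302 TPM at stage 36 (log2 change 0.92, adjusted p = 0.25). Its lower stage 40 library was only just above its higher stage 36 library. Both falls, srl and smtnl1, were lost with median-of-ratios scaling, and the falls numbered 0 without each stage 40 library and without stage 36 replicate 2, and 1 without stage 36 replicate 1. Rises numbered 7 without stage 36 replicate 1.

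The list of neural progenitors fell as a group. It also holds genes of young neurons, such as dcx and sox11, so it does not tell progenitors and young neurons apart. Of the 21 tested, 14 were called lower (66.7%, against 4.88% of all genes) and 7 did not pass the test, with a list median of -1.32 against -0.21 over all genes tested. The count was 9 with median-of-ratios scaling, 6 without either stage 40 library, 7 without stage 36 replicate 1 and 5 without stage 36 replicate 2. With median-of-ratios scaling 2.25% of all genes were called lower. At an unadjusted p of 0.05, 17 of the list were lower and 0 higher, against 3575 lower and 2555 higher of all 21179 genes tested. The summed level of the list was 1078 and 1263 TPM at stage 40, against 2997 and 3703 TPM at stage 36.

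Of the 14, hes6, sox1 and dcx were called with all libraries and without each of them. The repressor hes6, which promotes the step from progenitor to neuron, was at 22.5 and 23.4 TPM at stage 40, against 69.6 and 108 TPM at stage 36 (log2 change -1.88, SE 0.32, adjusted p = 0.00086). The progenitor factor sox1 was at 7.42 and 8.299 TPM at stage 40, against 28.1 and 24.2 TPM at stage 36 (log2 change -1.61, SE 0.32, adjusted p = 0.003). The microtubule protein dcx of migrating young neurons was at 22.8 and 21.05 TPM at stage 40, against 65.9 and 63.9 TPM at stage 36 (log2 change -1.52, SE 0.32, adjusted p = 0.005). In each of them the 2 stage 36 libraries were well above the 2 stage 40 libraries, and at stage 41 the levels were lower again, for example 9.41 and 6.69 TPM for hes6.

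The most abundant member was fabp7, the fatty acid-binding protein of radial glia. It was at 497 and 686 TPM at stage 40, against 1884 and 2232 TPM at stage 36 (log2 change -1.81, SE 0.39, adjusted p = 0.0057), and its adjusted p was 0.0501 without stage 40 replicate 1 and 0.052 without stage 36 replicate 2. The early neuron factor sox11 was at 43.9 and 41.2 TPM at stage 40, against 99.8 and 241 TPM at stage 36 (log2 change -1.84, SE 0.50, adjusted p = 0.022). Its stage 36 libraries stood apart from each other, and its adjusted p was 0.073 without stage 40 replicate 1, 0.1 without stage 40 replicate 2 and 0.22 without stage 36 replicate 2. The eye and forebrain factor pax6 was at 39.8 and 34.5 TPM at stage 40, against 101 and 94.6 TPM at stage 36 (log2 change -1.37, SE 0.30, adjusted p = 0.0062), with an adjusted p of 0.054 without stage 40 replicate 2.

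Transcription factors as a class went the same way. Of the 1571 tested, 246 were called lower (15.7%, against 4.88% of all genes) and 27 higher (1.72%, against 5.79%). Their median was -0.61 against -0.21 over all genes tested. With median-of-ratios scaling 128 were lower and 35 higher, where 2.25% of all genes were lower and 8.18% higher. The lower count was 152 without stage 40 replicate 1, 88 without stage 40 replicate 2, 94 without stage 36 replicate 1 and 116 without stage 36 replicate 2, and higher calls numbered 16 without stage 36 replicate 1 and 13 without stage 36 replicate 2. Their summed level was 23020 and 19710 TPM at stage 40, against 38120 and 34410 TPM at stage 36, and the stages did not overlap.

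Homeobox and HMG box families had many members called lower, and the order of families by share changed with the scaling, the block and the libraries. Of 226 homeobox genes, 77 were called lower (34.1%) and 1 higher, and of 61 HMG box genes, which include the Sox factors, 21 were called lower (34.4%). With median-of-ratios scaling these counts were 37 and 11, against 2.25% of all genes. Lower homeobox calls numbered 26 without stage 40 replicate 2, 28 without stage 36 replicate 2, 31 without stage 36 replicate 1 and 49 without stage 40 replicate 1. Lower HMG box calls numbered 6, 7, 10 and 11 with the same libraries left out. Basic helix-loop-helix genes had 21 of 122 lower (17.2%), and C2H2 zinc finger genes, the largest family, 46 of 551 (8.35%), and with median-of-ratios scaling these counts were 12 and 19. Lower basic helix-loop-helix calls numbered 12 without stage 40 replicate 1, 11 without stage 40 replicate 2, 14 without stage 36 replicate 1 and 9 without stage 36 replicate 2. Lower C2H2 calls numbered 24, 7, 10 and 23 in the same order.

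Some factors held without each library. The LIM homeodomain factor isl1, of motor neurons, retinal neurons and pancreatic islets (chromosome 9, 30089339 to 30094608), was at 19.7 and 28.5 TPM at stage 40, against 105 and 100.02 TPM at stage 36 (log2 change -2.07, SE 0.34, adjusted p = 0.00078). The forebrain and eye factor otx2 (chromosome 22, 12877018 to 12881707) was at 17.3 and 14.5 TPM at stage 40, against 81.4 and 50.6 TPM at stage 36 (log2 change -1.95, SE 0.37, adjusted p = 0.0026). The orphan nuclear receptor nr6a1, a repressor of pluripotency genes in mouse embryos, was at 1.05 and 2.19 TPM at stage 40, against 7.18 and 13.1 TPM at stage 36 (log2 change -2.07, SE 0.38, adjusted p = 0.0019). All 3 kept stage 36 libraries above stage 40 libraries without overlap.

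Other developmental factors were among them too. The heart and limb bud factor hand2 was at 5.82 and 4.55 TPM at stage 40, against 16.2 and 15.4 TPM at stage 36 (log2 change -1.45, SE 0.28, adjusted p = 0.0028). The hindbrain and trunk factor hoxd3 was at 14.7 and 14.5 TPM at stage 40, against 41.04 and 37.6 TPM at stage 36 (log2 change -1.37, SE 0.29, adjusted p = 0.0058), the only call among the 9 Hox genes tested. The thyroid and forebrain factor nkx2-1 was at 1.02 and 1.16 TPM at stage 40, against 4.003 and 4.18 TPM at stage 36 (log2 change -1.29, SE 0.23, adjusted p = 0.0013). Chosen after its values were seen, the hypothalamic factor otp was at 7.82 and 6.74 TPM at stage 40, against 26.3 and 29.4 TPM at stage 36, and its libraries did not overlap. The corepressor rcor2, a partner of neural gene repression, was at 14.1 and 10.5 TPM at stage 40, against 48.6 and 47.3 TPM at stage 36 (log2 change -1.89, SE 0.36, adjusted p = 0.0024).

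**Figure D4:**
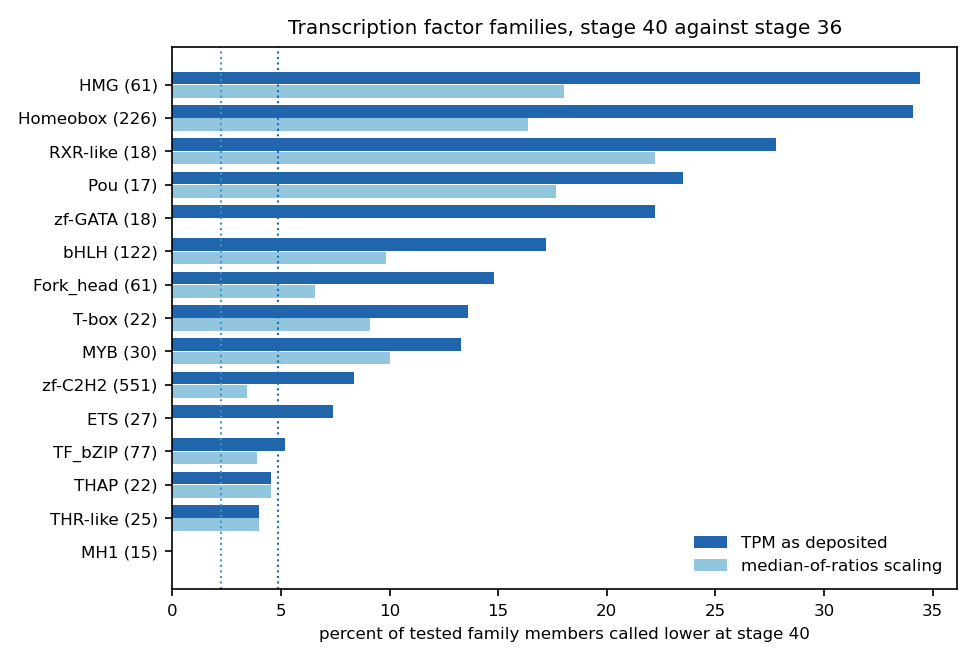
Percent of the tested members of each transcription factor family (number tested in brackets) called lower at stage 40, with TPM as deposited (dark bars) and with median-of-ratios scaling (light bars). Dotted lines mark the shares over all genes tested, 4.88% and 2.25%. The homeobox, HMG box, RXR-like and Pou families lie far beyond both. RXR-like and Pou rest on 5 of 18 and 4 of 17 genes called lower on the deposited scale, most of which did not hold without each single library.

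A few factors rose against this course. The Krüppel-like factor klf9 (chromosome 9, 16476415 to 16480282), known in vertebrates as a target of the glucocorticoid and thyroid hormone receptors, was at 176 and 28.3 TPM at stage 40, against 4.53 and 1.52 TPM at stage 36 (log2 change 4.27, SE 0.56, adjusted p = 9e-05). Replicate 1 of stage 40 was far above replicate 2, and both were above the stage 36 libraries. Of 13 glucocorticoid and stress genes tested, klf9 and tat rose (15.4%, against 5.79% of all genes). Beside them, sgk1 stood at 156 and 53.9 TPM at stage 40, against 52.7 and 34.6 TPM at stage 36 and did not pass the test. Interferon regulatory factor 8, irf8, which macrophages need in zebrafish, was at 44.2 and 26.3 TPM at stage 40, against 1.53 and 1.39 TPM at stage 36 (log2 change 3.84, SE 0.41, adjusted p = 1.1e-05). It was low at stage 38, at 3.84 and 3.93 TPM, and at stage 41, at 5.48 and 7.15 TPM. The activity-driven neuronal factor npas4 was at 3.19 and 4.07 TPM at stage 40, against 0.513 and 0.368 TPM at stage 36 (log2 change 1.68, SE 0.23, adjusted p = 0.00015). It was 1 of 5 risers among 22 immediate early genes tested (22.7%, against 5.79% of all genes). Of these genes 1, nr4a2, fell (4.55%, against 4.88%). The count of risers was 2 without stage 40 replicate 1 and 3 without either stage 36 library.

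Cell cycle genes were called lower in part, and the calls rested on few libraries. At an unadjusted p of 0.05, 71 of the 88 tested were lower and 0 higher, against 3575 lower and 2555 higher of all 21179 genes tested. Called lower were 22 of the 88 (25%, against 4.88% of all genes) and 66 were not called, with a list median of -1.11. The count was 9 with median-of-ratios scaling, 2 without stage 40 replicate 1, 5 without stage 40 replicate 2, 8 without stage 36 replicate 1 and 0 without stage 36 replicate 2, with 1 library taken to vary as in the other stages. None of the 22 held without each library. Over all genes tested, 2.25% were called lower with median-of-ratios scaling. The summed level of the list was 1100 and 1109 TPM at stage 40, against 2216 and 2893 TPM at stage 36. At stage 38 the replicates stood far apart, at 1386 and 507 TPM, and at stage 41 the sum was 1766 and 1775 TPM.

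The spindle checkpoint gene mad2l1 had the largest change among the called members of the list, at 11.5 and 13.2 TPM at stage 40, against 34.3 and 51.8 TPM at stage 36 (log2 change -1.70, SE 0.38, adjusted p = 0.0079), with an adjusted p of 0.09 without stage 36 replicate 2. Its partner cdc20, which activates the anaphase-promoting complex, was at 15.5 and 11.2 TPM at stage 40, against 33.9 and 57.3 TPM at stage 36 (log2 change -1.67, SE 0.52, adjusted p = 0.044). The kinetochore gene cenpu was at 8.49 and 7.97 TPM at stage 40, against 29.4 and 24.9 TPM at stage 36 (log2 change -1.61, SE 0.50, adjusted p = 0.043). Adjusted p for cdc20 and cenpu lay between 0.067 and 0.25 with any of the 4 libraries left out. In all 3 genes both stage 36 libraries were above both stage 40 libraries. The replication clamp pcna, also a progenitor marker, stood at 114 and 136 TPM at stage 40, against 214 and 306 TPM at stage 36 and did not pass the test (adjusted p = 0.073).

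Immune genes changed in part. Of 15 innate immune genes tested, irf8, lyz and mmp9 rose. Lysozyme, lyz, which cuts bacterial cell walls, was at 3.92 and 11.6 TPM at stage 40, against 0.749 and 1.09 TPM at stage 36 (log2 change 2.04, SE 0.35, adjusted p = 0.0011). The call on mmp9 was lost without stage 40 replicate 2, without stage 36 replicate 1 and without stage 36 replicate 2, at adjusted p of 0.28, 0.14 and 0.16. Among 21 lymphocyte and antigen presentation genes tested, cd74, psmb8 and psmb9 rose (14.3%, against 5.79% of all genes). In the same list gata3, tox and pax5 fell (14.3%, against 4.88% of all genes). These 3 fallers are also factors of the embryonic nervous system or other organs. The rises numbered 0 without stage 40 replicate 2, 2 without stage 36 replicate 1 and 1 without stage 36 replicate 2. The falls numbered 0 without each library but stage 36 replicate 2, where they numbered 2. The invariant chain cd74 was at 17.6 and 25.3 TPM at stage 40, against 9.08 and 6.41 TPM at stage 36, far below its 817 and 527 TPM at stage 41. The recombinase gene rag1 of developing lymphocytes stood at 3.31 and 4.34 TPM at stage 40, against 1.97 and 1.46 TPM at stage 36, and was not called.

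Single genes rose in several other tissues. Of 21 glia and myelin genes 4 rose and 2 fell, of 10 skin genes 2 rose, and of 28 cartilage and bone genes 3 rose and 2 fell. Over all genes tested, 5.79% were called higher and 4.88% lower. Cartilage and bone had 10.7% higher and 7.14% lower, so its falls lay near the share of all genes. The risers agr2 of the skin list and mmp9 of the cartilage and bone list also count in other lists. Without stage 36 replicate 2 the rises numbered 2 in glia and 1 in cartilage and the falls 1 and 0, and the falls also numbered 1 in glia and 1 in cartilage without stage 40 replicate 2 or stage 36 replicate 1. In glia, the myelin protein mpz was at 24.1 and 31.3 TPM at stage 40, against 3.6 and 6.12 TPM at stage 36 (log2 change 2.31, SE 0.41, adjusted p = 0.0015) and the glutamate transporter slc1a3 at 4.94 and 4.86 TPM at stage 40, against 1.12 and 0.853 TPM at stage 36 (log2 change 1.57, SE 0.19, adjusted p = 4.1e-05). In skin, the hemidesmosome collagen col17a1 was at 50.4 and 79.6 TPM at stage 40, against 14.8 and 9.71 TPM at stage 36 (log2 change 2.31, SE 0.38, adjusted p = 0.00069). In cartilage, ucma, a secreted matrix protein, was at 2.31 and 4.65 TPM at stage 40, against 0.0833 and 0.101 TPM at stage 36 (log2 change 1.99, SE 0.31, adjusted p = 0.00045), while col9a1, a cartilage collagen, was at 41.5 and 61.6 TPM at stage 40, against 172 and 213 TPM at stage 36 (log2 change -1.90, SE 0.44, adjusted p = 0.0091). Calls on the first 4 of these held without each library, and that on col9a1 was lost without stage 40 replicate 1 (adjusted p = 0.075) and without stage 36 replicate 2 (adjusted p = 0.076). The gut and brain peptide vip was at 9.88 and 9.7 TPM at stage 40, against 2.698 and 2.82 TPM at stage 36 (log2 change 1.52, SE 0.23, adjusted p = 0.00028). The serotonin synthesis enzyme tph1 was at 8.88 and 14.3 TPM at stage 40, against 3.64 and 2.41 TPM at stage 36 (log2 change 1.63, SE 0.29, adjusted p = 0.0016).

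In pigment cells 6 of 21 genes were called lower (28.6%, against 4.88% of all genes) and 1 higher (4.76%, against 5.79%). With median-of-ratios scaling the lower count was 2, and it was 2, 0, 1 and 2 without stage 40 replicate 1, stage 40 replicate 2, stage 36 replicate 1 and stage 36 replicate 2. The rise, xdh, had an adjusted p between 0.052 and 0.1 with any library left out. The melanin enzyme tyrp1 was at 59.7 and 46.7 TPM at stage 40, against 210.1 and 104 TPM at stage 36 (log2 change -1.47, SE 0.44, adjusted p = 0.038). Its adjusted p was 0.079 without stage 40 replicate 1, 0.18 without stage 40 replicate 2 and 0.26 without stage 36 replicate 1. Medaka strains are known to differ in pigmentation, and the part of the strain label of stage 40 replicate 2 in these levels was not tested.

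Lipid genes had some rises. Of 21 genes of lipoproteins and yolk lipids, 4 rose, and of 21 genes of cholesterol synthesis, 3 rose, beside 5.79% of all genes. With median-of-ratios scaling these counts were 8 and 7, but the share of all genes called higher also went up, to 8.18%. Hepatic lipase, lipc, which trims lipoproteins in the liver's vessels, was at 4.37 and 4.64 TPM at stage 40, against 1.397 and 0 TPM at stage 36 (log2 change 1.83, SE 0.28, adjusted p = 0.00041) and held without each library. The lipoprotein count was 2 without stage 36 replicate 1 and 1 without stage 36 replicate 2. The cholesterol count was 0 without stage 40 replicate 2 and 1 without either stage 36 library, and none of its 3 calls, msmo1, nsdhl and sqle, held without each library. Squalene epoxidase, sqle, an enzyme of that pathway, was at 5.45 and 11.96 TPM at stage 40, against 1.49 and 1.78 TPM at stage 36 (log2 change 1.80, SE 0.48, adjusted p = 0.021).

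Among hormone genes, 4 of 21 of the pituitary, thyroid and other glands rose and 1, nkx2-1, fell. The rises were dio1, penk, star and vip, and they numbered 1 without stage 40 replicate 2 and 1 without stage 36 replicate 1. In the endocrine pancreas list of 14, pcsk1 rose (7.14%, near the 5.79% of all genes). The factors isl1, neurod1 and pax6 fell (21.4%, against 4.88%), and these 3 factors also belong to the nervous system. The call on isl1 held without each library, that on neurod1 was lost with any library left out (adjusted p between 0.076 and 0.2), and the falls numbered 1 without stage 40 replicate 2 and 2 without either stage 36 library. Thyroid deiodinase, dio1, which activates or breaks down thyroid hormone, was at 5.82 and 11.01 TPM at stage 40, against 1.05 and 2.32 TPM at stage 36 (log2 change 1.79, SE 0.44, adjusted p = 0.014), with an adjusted p of 0.13 without stage 40 replicate 2 and 0.11 without stage 36 replicate 1. The prohormone convertase pcsk1 was at 16.5 and 20.8 TPM at stage 40, against 8.53 and 7.95 TPM at stage 36 (log2 change 1.08, SE 0.32, adjusted p = 0.033), and its adjusted p lay between 0.059 and 0.17 with any library left out.

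The remaining lists had few calls, beside 5.79% higher and 4.88% lower over all genes tested. Inner ear (5.88% higher), metalloproteases and inhibitors (6.25% higher), germ cells (4.0% higher) and vessels (4.76% lower) lay near these shares. Their calls are therefore not read as changes of those lists. Oxidative phosphorylation lay below, at 2.27% higher. Above were smooth muscle and fibroblasts (15.4% higher), heart (15.4% lower) and gill and swim bladder (16.7% higher, 33.3% lower). Of 26 smooth muscle and fibroblast genes, acta2, mylk, postn and tnmd rose, and the count was 2 without stage 40 replicate 2 and 1 without stage 36 replicate 2. Of 44 oxidative phosphorylation genes, sdhd rose, and the count was 3 without stage 36 replicate 2 and 0 without each of the others. Of 16 matrix metalloproteases and inhibitors, mmp9 rose. Of 17 inner ear genes, coch rose and was not called without stage 40 replicate 1 or without either stage 36 library. Of 25 germ cell genes, gsdf rose and was not called without stage 40 replicate 2 or without stage 36 replicate 2. Of 21 vessel genes, prox1 fell and was not called without stage 40 replicate 1 or without stage 36 replicate 1. Of 13 heart genes, hand2 and tbx5 fell, and tbx5 was not called without stage 40 replicate 1 or without stage 36 replicate 1. Of 6 gill and swim bladder genes, acta2 rose while foxf1 and sox2 fell, and each of these 3 calls was lost with at least 1 library left out.

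Of the 38 lists, 4 had no call by limma, namely lens, erythrocytes, ribosomal proteins, and heat shock and folding. The lists hold only genes that had a symbol, so the lack of calls speaks only for the genes tested. From 38 erythrocyte entries 9 genes were tested, from 25 lens entries 8, from 52 Hox entries 9 and from 40 exocrine pancreas entries 4. Of the 64 ribosomal protein genes tested, 1 was higher and 1 lower at an unadjusted p of 0.05, with a median of 0.01. Of all 21179 genes tested, 2555 were higher and 3575 lower at that level. The 9 erythrocyte genes had 1 higher and 0 lower at that level, and the 20 heat shock genes had 0 higher and 1 lower. The list of neurons and synapses had 2 higher and 1 lower of 42 tested, near the shares of all genes. The list of neural progenitors, which also holds young neuron genes, had more calls. The vesicle protein gene snap25 stood at 147 and 249 TPM at stage 40, against 120.0 and 149 TPM at stage 36, and the growth cone protein gap43 at 67.1 and 60.1 TPM at stage 40, against 144 and 165 TPM at stage 36 (log2 change -1.27, SE 0.39, adjusted p = 0.044), whose adjusted p lay between 0.11 and 0.19 with any of the 4 libraries left out.

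**Figure D5:**
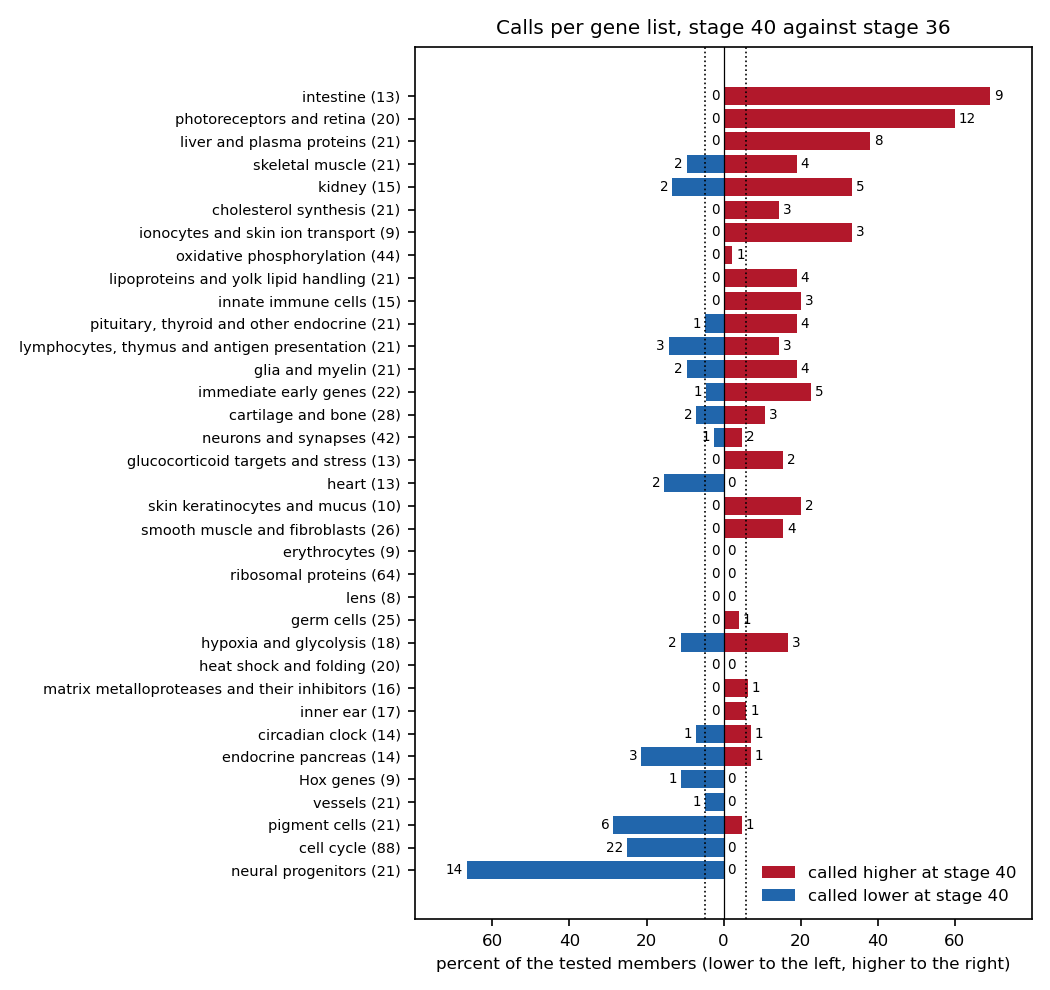
Percent of the tested members of each list with 8 or more genes called lower (blue, to the left) and higher (red, to the right) at stage 40, with the number of members called at the bar ends, the number tested in brackets and lists ordered by their median change. Dotted lines mark the shares over all genes tested, 4.88% lower and 5.79% higher; intestine and retina stand at the top and neural progenitors at the bottom.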

How the data were processed

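Of the 24 libraries, 22 cover 11 stages with 2 libraries each, and the 2 gonad libraries were not used here. The study prepared stranded mRNA libraries, and HISAT2 2.1.0 and StringTie 1.3.3b are named in the submitters' processing notes. The values used are TPM that the authors deposited, estimated on their own gene models, with replicate 1 columns summing to between 980148 and 998174 and replicate 2 columns to 1000000. TPM keep no read depth, so counting error is unknown. No genome sequence was used here, and positions are those of the study's gene models.

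A gene entered the test if 2 or more libraries reached 1 TPM. Values were analysed as log2(TPM + 1) with limma 3.58.1 (R 4.3.3), with a mean per stage over the 22 stage libraries and an intensity trend, which left 11 residual degrees of freedom. Fold changes on this scale understate those of low genes. The thresholds were a Benjamini-Hochberg adjusted p of 0.05 and a log2 change of 1 in size. Fits without 1 library leave 1 in that stage, which is then taken to vary like the others. The columns without a sample numbered 0.

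Symbols came from RefSeq genes (assembly ASM223467v1, none of whose coordinates is printed) whose spans overlapped those of the gene models by a Jaccard index of at least 0.5. Of 26549 genes, 18568 matched and 9389 had a symbol. In a separate run with the gene models displaced by 200000 bases, 2389 matched, and no symbol was taken from that run. The 5 matches that differed by a final letter from the gene meant were removed.

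The comparison, the lists and the tests were chosen with earlier results of these data known. Named were the 15 largest rises and falls among called genes with a symbol, at least 10 TPM at the higher stage and no overlap, and in each list the 4 most abundant and the 4 largest called, as well as the 5 genes in which stage 40 replicate 2 stood most apart, and the text gives those that matter. The values of 1 retina gene that counts in its list are not reported here. Alternatives changed the pseudocount, filter, scaling, trend, replicate block, fold minimum and libraries. Scripts used Python 3.11.15, pandas 2.3.3, numpy 2.4.6, scipy 1.17.1 and matplotlib 3.10.9, and the test was checked on simulated data.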

Additional observations from a re-analysis of the deposited data

How the results depend on the processing

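None of the 118 called genes taken by the naming rule changed sign under any alternative that was run. In each of them both libraries of one stage lay beyond both of the other. A reversed sign was therefore possible only with median-of-ratios scaling or quantile normalization. Leaving out libraries and the other alternatives could not reverse a sign, so its constancy under them shows nothing. The call was kept in 105 of the 118 with median-of-ratios scaling and in 12 with stages 36 and 40 alone. The balance of higher against lower calls turned with the replicate block. The median of all genes changed sign with median-of-ratios scaling (0.01 in place of -0.21). With a pseudocount of 0.1 TPM, 670 genes were called lower, 7 of them neural progenitor genes and 145 transcription factors. With a pseudocount of 5 TPM, 1316 genes were called, 672 higher and 644 lower, with 9 neural progenitor genes and 155 transcription factors lower. Median-of-ratios scaling gave 476 lower genes, with 9 neural progenitor genes, 9 cell cycle genes and 128 transcription factors among them. With a minimum log2 change of 2, 502 genes were called, 429 higher and 73 lower, with 0 neural progenitor genes, 0 cell cycle genes and 8 transcription factors lower.

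A fit of the 4 libraries of stages 36 and 40 alone, with fewer samples to estimate the spread, called 115 genes, 107 higher and 8 lower, with 0 retina genes, 0 intestine genes, 0 neural progenitor genes, 0 cell cycle genes and 1 transcription factor. Without both libraries labelled d-rR / Qurt, 1346 genes were called and 373 were lower, with 4 neural progenitor genes, 5 cell cycle genes and 80 transcription factors. Leaving out 1 library at a time gave between 1149 and 1717 calls, 756 to 1193 higher and 384 to 524 lower, with 5 to 7 neural progenitor genes, 0 to 8 cell cycle genes and 88 to 152 transcription factors. With the replicate number as a block, 1467 genes were called higher and 1600 lower, so that 47.8% of the calls were higher in place of 54.3%, and 45 of the lower genes were cell cycle genes. The differences between replicates 2 and 1 at the 2 stages correlated over genes at 0.392, but with 2 pairs and no label of a shared batch the numbers do not establish pairing. Other filters, quantile normalization, no trend and no minimum change kept these counts within 1.5 times. Replication at 2 libraries per stage and an unknown depth limit all values.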

Other observations

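Some long noncoding RNAs also changed. Of the 314 tested, 27 were called lower (8.6%, against 4.88% of all genes) and 3 higher (0.955%, against 5.79%). Their median of -0.28 was close to the -0.21 over all genes tested. Their summed level was 7613 and 27690 TPM at stage 40, against 10420 and 23690 TPM at stage 36, so replicates stood far apart and the stages overlapped. At stage 41 it was 21490 and 6419 TPM. With median-of-ratios scaling 20 were lower, where 2.25% of all genes were. The lower count was 14 without stage 40 replicate 1, 14 without stage 40 replicate 2, 26 without stage 36 replicate 1 and 12 without stage 36 replicate 2, and 7 were called with all libraries and without each of them. None of the 3 rises was. The largest fall, chosen after the values were seen, was that of IGDB26246 (chromosome 9, 18862354 to 18866685), at 0.728 and 0.918 TPM at stage 40, against 13.9 and 34.8 TPM at stage 36 (log2 change -3.66, SE 0.41, adjusted p = 1.7e-05). The most abundant of those that fell, IGDB25182, stood at 75.8 and 59.4 TPM at stage 40, against 187 and 185 TPM at stage 36 (log2 change -1.46, SE 0.32, adjusted p = 0.0069), and its call was lost without stage 40 replicate 2 (adjusted p = 0.069).

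Genes without a symbol could not be placed in the lists. A symbol was held by 43.3% of the genes tested and by 34.6% of the genes called, with 323 of the 1227 called higher and 460 of the 1033 called lower. The 2 largest changes in each direction at 10 TPM or more were picked after their values were seen. Of a pair of neighbours on chromosome 2, IGDB18190 was at 570.2 and 1031 TPM at stage 40, against 0.208 and 0 TPM at stage 36, and IGDB18189 was at 391 and 1114 TPM at stage 40, against 0.589 and 0 TPM at stage 36. The falls were those of IGDB09449 on chromosome 8, at 6.49 and 6.39 TPM at stage 40, against 371 and 805 TPM at stage 36, and of IGDB07497, at 14.02 and 1.52 TPM at stage 40, against 242 and 290.3 TPM at stage 36. The gene IGDB07497 lies beside hce on chromosome 3, from 32704054 to 32707947, with hce beginning at 32709884, and it was at 102 and 15.2 TPM at stage 38 and below 0.2 TPM at stage 41.

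Stage 40 replicate 2, the d-rR / Qurt library, was set against stage 40 replicate 1 and both stage 36 libraries. It stood apart from all of them by at least 3 on the log2(TPM + 1) scale in 18 of the 26549 genes. Of the 18, 13 were higher and 5 lower there, and 5 were among the calls, beside 10.7% of all genes tested. No such count was made for any other library, so the 18 are not shown to be particular to stage 40 replicate 2. The largest gap was that of IGDB06993, at 101 TPM in that library and at 0.248, 0.0821 and 0.163 TPM in stage 40 replicate 1 and the 2 stage 36 libraries. In contrast, IGDB16508 was listed at 0 TPM in that library and at 63.0, 39.8 and 77.3 TPM in the same others. At stage 41 the library of the d-rR / Qurt label had 77.3 TPM of it and the Hd-rR library 91.8 TPM. The other genes picked stood farther apart there: IGDB06993 at 2.41 and 0.0294 TPM, IGDB26461 at 44.4 and 9.04 TPM, IGDB10815 at 1.61 and 11.4 TPM and IGDB00684 at 72.5 and 4.67 TPM, in the same order. The rule that picked them required the same direction at both stages, and the part of the strain was not tested. The strain and the replicate number cannot be told apart at stage 40.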
